A study of Homo sapiens with 15 samples.

Results

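The expression of 8 chemokine genes was followed in A549 cells: CXCL1, CXCL2, CXCL3, CXCL5, CXCL6 and CXCL8, whose products draw neutrophils, together with CCL20 and CCL2. They were chosen by name, with earlier results of these data known. Each was read from the probe sets that the platform's probe table pairs with that symbol alone. CXCL8 was formerly called IL8. The rule found 1 probe set for each of the 8 members, among 18377 genes with a probe set of their own. All 8 passed the filter on dim genes described below, which left 16005 genes tested.

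A549 is a human lung adenocarcinoma cell line. RNA came from 15 cultures, 1 array each, in 5 groups of 3, and every culture, controls included, received 0.1% DMSO. The normoxic vehicle group had DMSO alone in normal air. The hypoxic vehicle group was sealed in an oxygen-consuming pouch for 42 h, 6 h after DMSO was added. The hypoxic BB2-125, BB2-162 and BB2-282 groups had the same hypoxia 6 h after 10 µM of that compound. The design text calls these code-named compounds transcriptional inhibitors. Normoxic cells with a compound were not analysed here, so what a compound does through hypoxia and what it does at any oxygen level cannot be told apart. Each group holds 3 cultures that the labels number as biological replicates, with no more said of how they were kept apart, and p-values here measure only the spread among them.

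Chemokines are small secreted proteins that guide leukocytes by binding receptors on their surface. CXCL1, CXCL2, CXCL3, CXCL5, CXCL6 and CXCL8 carry a glutamate-leucine-arginine motif ahead of their paired cysteines and act on CXCR2, and CXCL6 and CXCL8 also on CXCR1, both carried by neutrophils. CCL20 binds CCR6 on dendritic cells, B cells and T helper 17 cells, and CCL2 binds CCR2 on monocytes. Airway and alveolar epithelial cells make these proteins when interleukin-1, tumour necrosis factor or microbial products activate the transcription factor NF-kB, and their messenger RNAs are rapidly destroyed by proteins that recognise AU-rich elements.

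The upstream sequences of 5 members are shown because these genes moved differently below, while the 4 other than CXCL8 hold a match to the kappaB consensus, the sequence bound by NF-kB. RefSeq's promoter table (GRCh38.p14) held 7 of the members, and CCL2 was not among them. Each line gives the last 140 bases before the transcription start, 5′ to 3′ on the gene's strand. Capitals mark matches to the motifs searched: the kappaB consensus, the hypoxia response element core (ACGTG or GCGTG), the AP-1 site (TGANTCA), the C/EBP element (TTGCNNAA) and TATAAA, each on both strands.
CXCL1: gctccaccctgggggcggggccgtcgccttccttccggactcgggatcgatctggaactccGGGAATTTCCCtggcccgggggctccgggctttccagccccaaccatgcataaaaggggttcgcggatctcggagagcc
CXCL2: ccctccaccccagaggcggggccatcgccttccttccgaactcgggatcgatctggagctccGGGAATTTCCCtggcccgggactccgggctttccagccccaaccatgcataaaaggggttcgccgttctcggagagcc
CXCL5: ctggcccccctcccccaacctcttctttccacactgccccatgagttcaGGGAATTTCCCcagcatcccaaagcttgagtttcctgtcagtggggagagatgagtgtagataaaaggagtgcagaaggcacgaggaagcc
CXCL8: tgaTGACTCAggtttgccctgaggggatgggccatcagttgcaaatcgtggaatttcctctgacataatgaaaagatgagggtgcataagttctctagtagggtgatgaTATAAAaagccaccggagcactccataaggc
CCL20: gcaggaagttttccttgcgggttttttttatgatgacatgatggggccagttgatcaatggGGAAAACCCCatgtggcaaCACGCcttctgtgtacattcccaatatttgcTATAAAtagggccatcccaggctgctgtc

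These windows lie at chr4:73869253-73869392, plus strand for CXCL1, chr4:74099196-74099335, minus strand for CXCL2, chr4:73998678-73998817, minus strand for CXCL5, chr4:73740429-73740568, plus strand for CXCL8 and chr2:227813702-227813841, plus strand for CCL20. In CXCL1, CXCL2 and CXCL5 the capitals are a kappaB match on the gene strand, GGGAATTTCC, that overlaps another on the opposite strand shifted by 1 base. It starts 79 bases before the transcription start in CXCL1 and CXCL3, 78 in CXCL2, 91 in CXCL5 and 90 in CXCL6. In CCL20 the capitals are, in order, a kappaB match on the opposite strand, a hypoxia response element core 60 bases before the start, and TATAAA. In CXCL8 they are an AP-1 site and TATAAA, and the strict kappaB consensus was not in this window. The CXCL8 window does hold tggaatttcc, which differs from the GGGAATTTCC of CXCL5 in its first base only. It also holds ttgcaaat, which differs from the C/EBP element searched in its last base only. The lack of a strict match therefore does not show that CXCL8 lacks a site for NF-kB or C/EBP. In the 300-base promoters, which run on 50 bases past the start, the kappaB consensus stood in 6 of the 7 members and in 5.91% of the 35114 promoters of the table. The hypoxia response element core stood in 2 members, CXCL5 and CCL20, and in 48.4% of all promoters. The AP-1 site stood in CXCL8 only and in 7.71% of all, the C/EBP element in CXCL2 only and in 10.5% of all, and TATAAA in CXCL8 and CCL20 and in 11.5% of all. The 250 upstream bases were 81.4% identical between CXCL1 and CXCL3, 70.1% between CXCL1 and CXCL2, and 85.3% between CXCL5 and CXCL6. A match is a description of letters and was not tested for binding.

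The deposited values are intensities, read here as log2. Values of different probe sets are not comparable, so levels are compared between groups within a gene only. The transcripts of CXCL1, CXCL2 and CXCL3 are near copies of each other, and whether their probes share signal was not tested. A gene was tested when its value passed, on 3 or more arrays, the 25th percentile of that array's probe sets, called the dim level here. It averaged 4.73, and the array medians averaged 6.31. Changes are differences of group means from limma's fit of all 15 arrays, and ± gives the standard error. A gene was called at a Benjamini-Hochberg adjusted p under 0.05 over all genes tested. In these cultures a smaller share of cells expressing a gene and less of its RNA per cell cannot be told apart.

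All 6 epithelial markers (EPCAM, CDH1, KRT7, KRT8, KRT18, KRT19) exceeded the dim level on all 15 arrays. Of 9 leukocyte markers, PTPRC, S100A8 and LYZ exceeded it on no array, and the other 6 did on all 15. So did 4 of 6 fibroblast and 2 of 5 endothelial markers. The array median was exceeded on all 15 arrays by 5 of the epithelial, 1 of the fibroblast and 0 of the leukocyte and endothelial markers. BB2-162 replicate 1 stood apart, with a root mean square deviation from its group of 0.221 over all genes against 0.0942 to 0.163 for the other arrays, and it was the lowest of its group in 6 of the 8 members. Hypoxic vehicle replicate 2 was the lowest of its group in all 8 members, and in 36.9% of all tested genes. Changes between groups that turn on either array are given with and without it.

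**Figure D1:**
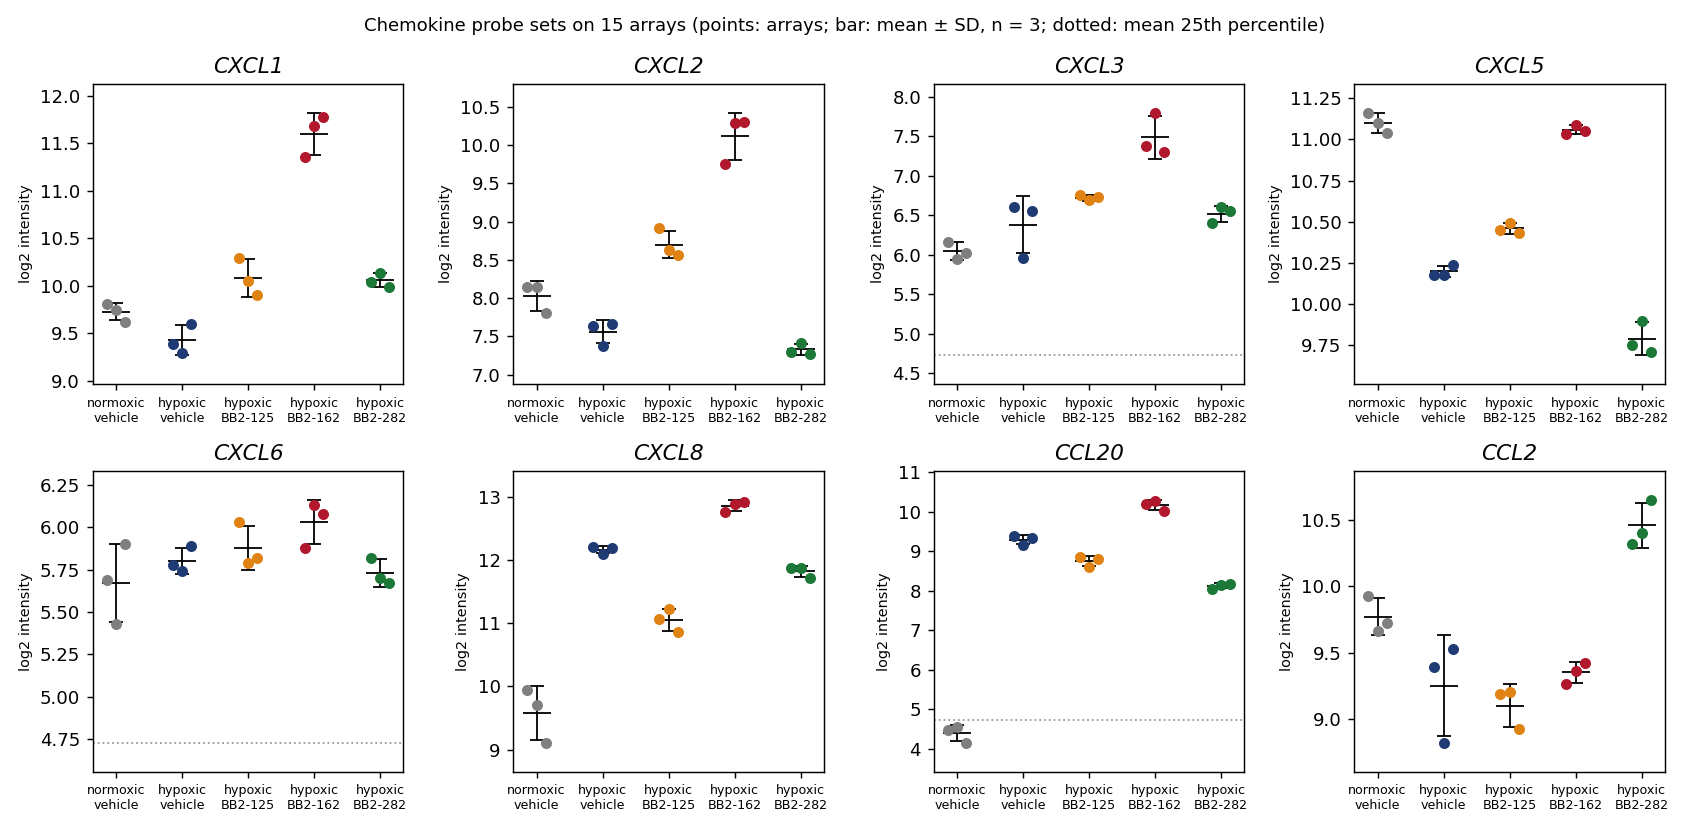
Log2 intensity of the 8 chemokine probe sets in each of the 5 groups, with 1 panel a gene, its own vertical scale, 1 point an array, and the mean ± SD (n = 3) in black; the dotted line in the CXCL3, CXCL6 and CCL20 panels is the mean 25th percentile of all probe sets, 4.73. CCL20 lay below that line in normoxia and between 8.06 and 10.28 on the hypoxic arrays, CXCL1 and CXCL2 were highest with BB2-162, and CCL2 was highest with BB2-282.

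Hypoxia against normoxia, both with vehicle, asked which of these genes low oxygen changed. CCL20 and CXCL8 rose steeply, CXCL5, CCL2 and CXCL2 fell, and CXCL1, CXCL3 and CXCL6 did not pass. Thus 5 of 8 members were called, 2 higher and 3 lower, where 57.5% of all tested genes were, 28.2% as higher and 29.4% as lower, so the share of members called was near the background. The median change of the members was -0.08 and that of all tested genes 0.09.

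CCL20, the CCR6 ligand, read 4.47, 4.56 and 4.16 on the normoxic arrays, all below the dim level, and 9.38, 9.17 and 9.34 on the hypoxic vehicle arrays. The groups lay far apart, and the fitted rise was 4.90 ± 0.11 (adjusted p = 6.61e-16). Because the normoxic side gives only a bound, the rise was at least 4.69 counted from the dim level of the normoxic arrays, which averaged 4.6, or at least 25.9-fold. CXCL8, the most studied neutrophil attractant, read 9.94, 9.70 and 9.11 in normoxia and 12.20, 12.10 and 12.19 in hypoxia. The hypoxic arrays were the closer to each other, with an SD of 0.057 against 0.43 (n = 3 each), and the rise was 2.58 ± 0.15 (adjusted p = 6.95e-11), or 5.98-fold.

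CXCL5, which acts on CXCR2, read 11.16, 11.10 and 11.04 in normoxia and 10.18, 10.18 and 10.24 in hypoxia. Every hypoxic array was below every normoxic one, and CXCL5 fell by 0.90 (SE 0.09, adjusted p = 4.65e-08). CCL2, the monocyte attractant, read 9.93, 9.66 and 9.72 in normoxia and 9.39, 8.82 and 9.53 in hypoxia. Its fall was -0.52 ± 0.15 (adjusted p = 0.00644), and without the lowest array, hypoxic vehicle replicate 2, it was -0.31 (adjusted p = 0.0494). CXCL2 read 8.15, 8.15 and 7.81 in normoxia and 7.63, 7.38 and 7.66 in hypoxia, a fall of -0.47 ± 0.14 (adjusted p = 0.00964) that did not pass after quantile normalization (-0.36, adjusted p = 0.0558).

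CXCL1 read 9.81, 9.75 and 9.62 in normoxia and 9.39, 9.29 and 9.60 in hypoxia. The hypoxic arrays were all lower, but the difference of -0.30 ± 0.13 stood at the threshold (adjusted p = 0.0501). It passed in 8 of 15 alternatives, among them without normoxic vehicle replicate 3 (-0.35, adjusted p = 0.0495) or hypoxic vehicle replicate 3 (-0.39, 0.0253), and without hypoxic vehicle replicate 2 it was -0.23 (adjusted p = 0.169). CXCL3 read 6.16, 5.95 and 6.03 in normoxia and 6.61, 5.96 and 6.56 in hypoxia, a difference of 0.33 ± 0.15 (adjusted p = 0.0738). Here too hypoxic vehicle replicate 2 stood apart from its group, and without it the difference was 0.54 (adjusted p = 0.0023). CXCL6 was low throughout, at 5.43 to 6.13 over all 15 arrays, and differed by 0.13 ± 0.12 (adjusted p = 0.347).

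The epithelial markers moved with hypoxia too. Their summed intensity was 22900 to 24400 in normoxia and 17600 to 19000 in the hypoxic vehicle, with 2 of 6 higher and 4 lower. The background was 57.5% of all tested genes called, 28.2% as higher and 29.4% as lower. Such a sum adds probe sets whose values are not comparable, so the brighter ones weigh most. None of the tested leukocyte (0 of 6) or fibroblast (0 of 4) markers passed, and 1 of 5 endothelial markers rose. The part of these shifts in the chemokine changes was not tested.

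**Figure D2:**
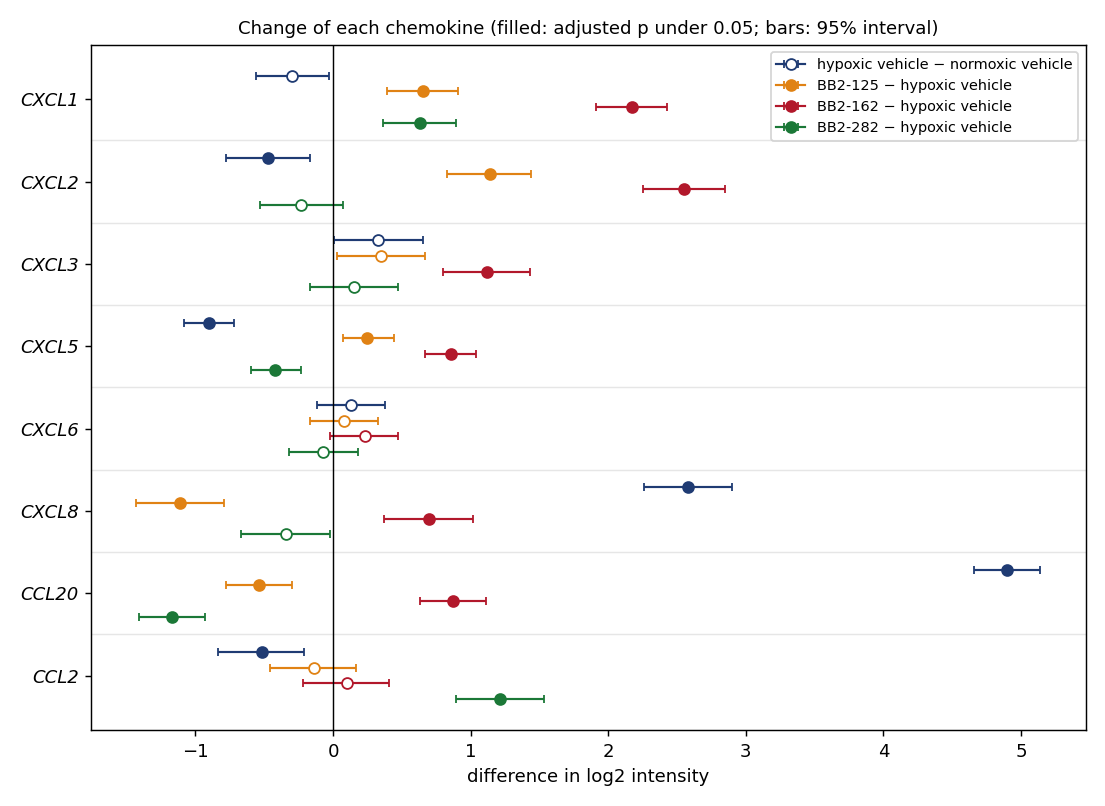
Differences in log2 intensity for the 8 chemokines in 4 comparisons, with 95% intervals from limma's fit; filled points passed an adjusted p under 0.05 and open points did not. Hypoxia moved CCL20 by 4.90 and CXCL8 by 2.58, BB2-162 lies to the right of 0 for all 8 genes, and BB2-282 has CCL2 at 1.21 on the right and CCL20 at -1.17 on the left.

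BB2-162 against the hypoxic vehicle asked what that compound changed in hypoxic cells. It raised CXCL2, CXCL1, CXCL3, CCL20, CXCL5 and CXCL8, that is 6 of the 8 members, and lowered none. Among all tested genes 36.1% were called, 15.7% as higher and 20.4% as lower. The median change was 0.86 for the members and 0.06 for all tested genes. The hypoxic vehicle arrays enter this comparison, the previous one and those of the other compounds, so the comparisons are not independent.

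CXCL2 read 9.75, 10.29 and 10.30 with BB2-162, each above every array of the other groups. The rise from the hypoxic vehicle was 2.55 ± 0.14 (adjusted p = 1.18e-09), or 5.86-fold, and the lowest array was BB2-162 replicate 1. CXCL1 read 11.35, 11.68 and 11.77 and rose by 2.17 ± 0.13 (adjusted p = 1.51e-09), or 4.5-fold, with the same array lowest. CXCL3 read 7.38, 7.80 and 7.30 and rose by 1.12 ± 0.15 (adjusted p = 1.94e-05). For all 3 genes no array of another group reached the BB2-162 arrays. Without BB2-162 replicate 1 the rises were 2.73 for CXCL2, 2.30 for CXCL1 and 1.17 for CXCL3. Without hypoxic vehicle replicate 2 they were smaller, 2.46 for CXCL2 and 0.91 for CXCL3, and still passed.

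CCL20 and CXCL8, already high in hypoxia, went higher still. CCL20 read 10.20, 10.28 and 10.02 with BB2-162 and rose by 0.87 ± 0.11 (adjusted p = 1.38e-05). CXCL8 read 12.76, 12.89 and 12.92 and rose by 0.70 ± 0.15 (adjusted p = 0.00191). Without hypoxic vehicle replicate 2 the rises were 0.81 for CCL20 and 0.66 for CXCL8, and both passed. CXCL5 read 11.03, 11.09 and 11.05, a rise of 0.86 ± 0.09 (adjusted p = 7.6e-07). That put CXCL5 back at its normoxic level, from which it differed by -0.05 ± 0.09 (95% interval -0.23 to 0.14, adjusted p = 0.636). CXCL6 (0.23 ± 0.12, adjusted p = 0.134) and CCL2 (0.10 ± 0.15, adjusted p = 0.62) did not pass. Without hypoxic vehicle replicate 2 the CCL2 difference was -0.12 and did not pass either.

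Markers moved with this compound as well, where 36.1% of all tested genes were called, 15.7% as higher and 20.4% as lower. The shares of the marker lists called lay on either side of that background. Of the 6 epithelial markers 3 fell, CDH1 (-0.47 ± 0.14), KRT7 (-0.39 ± 0.10) and KRT19 (-0.43 ± 0.11), and their summed intensity was 16200 to 20400. The summed intensity of 9 leukocyte markers was 403 to 445 with BB2-162 and 331 to 392 in the hypoxic vehicle. The dim level itself averaged 4.84 with BB2-162 and 4.70 in the hypoxic vehicle. Its share in these low sums was not tested. Of the 6 leukocyte markers tested, 2 rose, ITGAM (0.31 ± 0.09) and CD3E (0.37 ± 0.12), while PTPRC stayed below the dim level on every array. The 6 fibroblast markers summed to 433 to 522 against 384 to 445, and 2 of the 4 tested rose, with DCN and LUM below the dim level on all 15 arrays. The 5 endothelial markers summed to 180 to 207 against 165 to 177, and 0 of 5 passed. Their part in the chemokine changes was not tested.

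BB2-125 against the hypoxic vehicle asked the same of the first compound. It moved the family in both directions: CXCL2, CXCL1 and CXCL5 rose, and CXCL8 and CCL20 fell. That is 5 of 8 members, 3 higher and 2 lower, where 28.4% of all tested genes were called, 13.3% as higher and 15% as lower. The median change of the members was 0.16 and that of all tested genes 0.02.

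CXCL2 read 8.91, 8.63 and 8.56 with BB2-125 and rose by 1.14 ± 0.14 (adjusted p = 8.62e-06). CXCL1 read 10.29, 10.05 and 9.90 and rose by 0.65 ± 0.13 (adjusted p = 0.000594). For both genes the BB2-125 arrays lay above all hypoxic vehicle arrays and below all BB2-162 arrays. CXCL8 read 11.07, 11.22 and 10.86, below every hypoxic vehicle array and above every normoxic array. It fell by 1.11 (SE 0.15, adjusted p = 2.25e-05) from the hypoxic vehicle and remained 1.47 ± 0.15 above normoxia (adjusted p = 1.59e-07). CCL20 read 8.87, 8.61 and 8.80 and fell by 0.54 (SE 0.11, adjusted p = 0.00137).

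CXCL5 read 10.45, 10.49 and 10.43, all above the hypoxic vehicle arrays, and its rise was small, 0.25 ± 0.09 (adjusted p = 0.0336). That call ended in 8 of 15 alternatives: after quantile normalization (adjusted p = 0.147), in a fit of these groups alone (0.0546), in that fit blocked by replicate number (0.0518), and without hypoxic vehicle replicate 1 (0.086) or 2 (0.0906) or BB2-125 replicate 1 (0.0702), 2 (0.101) or 3 (0.0661). CXCL3 read 6.76, 6.69 and 6.73 and did not pass (0.35 ± 0.15, adjusted p = 0.101), but passed without hypoxic vehicle replicate 1 (0.47, adjusted p = 0.0451), and was 0.14 without hypoxic vehicle replicate 2 (adjusted p = 0.55). CXCL6 (0.08 ± 0.12, adjusted p = 0.694) and CCL2 (-0.14 ± 0.15, adjusted p = 0.549) did not pass. Without hypoxic vehicle replicate 2 the CCL2 difference was -0.36 and did not pass either. With this compound 1 of 6 epithelial markers, KRT8 (0.35 ± 0.10), and 1 of 6 tested leukocyte markers, CD3E (0.44 ± 0.12), rose and 0 fell. Of the tested endothelial and fibroblast markers 0 of 5 and 0 of 4 passed, where 28.4% of all tested genes were called. The part of these markers in the chemokine changes was not tested.

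BB2-282 against the hypoxic vehicle gave another pattern again. CCL2 and CXCL1 rose, and CCL20 and CXCL5 fell. These were 4 of 8 members, where 13.6% of all tested genes were called, 5.65% as higher and 7.94% as lower. The median change of the members was -0.15 and that of all tested genes 0.02.

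CCL2 read 10.32, 10.40 and 10.65 with BB2-282, above every array of the other 4 groups. The rise from the hypoxic vehicle was 1.21 ± 0.15 (adjusted p = 3.64e-05), and 0.99 without hypoxic vehicle replicate 2 (adjusted p = 0.000116). CCL20 read 8.06, 8.15 and 8.18, the lowest of the hypoxic groups, and fell by 1.17 (SE 0.11, adjusted p = 3.36e-06). Counted from the dim level of the normoxic arrays, it was still higher than in normoxia by at least 3.53, or at least 11.5-fold.

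CXCL1 read 10.04, 10.13 and 9.99 and rose by 0.63 ± 0.13 (adjusted p = 0.00241). CXCL2 read 7.30, 7.42 and 7.27, overlapping the hypoxic vehicle, and did not pass (-0.23 ± 0.14, 95% interval -0.53 to 0.07, adjusted p = 0.368). CXCL5 read 9.75, 9.90 and 9.71 and fell by 0.42 (SE 0.09, adjusted p = 0.00326), the lowest level of that gene in any group. CXCL8 read 11.87, 11.87 and 11.71, just below the hypoxic vehicle arrays. Its difference of -0.34 ± 0.15 did not pass (adjusted p = 0.167), though it did in a fit of these groups alone (adjusted p = 0.0263). CXCL3 (0.15 ± 0.15, adjusted p = 0.63) and CXCL6 (-0.07 ± 0.12, adjusted p = 0.795) did not pass. Without hypoxic vehicle replicate 2 the CXCL3 difference was -0.06 and did not pass either. With this compound 1 of 6 epithelial markers, KRT8, fell by 0.35 (SE 0.10), and 1 of 4 tested fibroblast markers, COL1A1, rose by 0.35 ± 0.10. Of the tested leukocyte and endothelial markers 0 of 6 and 0 of 5 passed, where 13.6% of all tested genes were called. The summed epithelial markers lay at 15100 to 17600, and the part of these markers in the chemokine changes was not tested.

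The compounds were compared with each other at the same dose and time, in 3 pairs over the 8 genes, with p-values adjusted over all genes of a pair. These contrasts hold no vehicle array. BB2-162 exceeded BB2-125 in 6 of 8 members and fell below it in none, where 26.1% of all genes were called and 9.43% were higher. The largest of these differences was in CXCL8, at 1.81 ± 0.15 (95% interval 1.48 to 2.13, adjusted p = 2.93e-07), followed by CXCL1 at 1.52 ± 0.13, CXCL2 and CCL20 at 1.41 ± 0.14 and 1.41 ± 0.11, CXCL3 at 0.77 ± 0.15 and CXCL5 at 0.60 ± 0.09. CXCL6 (95% interval -0.10 to 0.39) and CCL2 (-0.07 to 0.56) did not pass.

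BB2-282 differed from BB2-162 in 7 of 8 members, 6 lower and CCL2 higher, where 35.8% of all genes were called, 15.6% as lower and 20.3% as higher. CXCL2 was lower by -2.78 ± 0.14 (95% interval -3.08 to -2.48, adjusted p = 2.24e-10), CCL20 by -2.04 ± 0.11, CXCL1 by -1.54 ± 0.13, CXCL5 by -1.27 ± 0.09, CXCL8 by -1.04 ± 0.15 and CXCL3 by -0.97 ± 0.15. CCL2 was higher by 1.11 ± 0.15 (adjusted p = 1.43e-05). CXCL6 stood at -0.30 ± 0.12 (adjusted p = 0.0559) and passed without BB2-162 replicate 1 (-0.37, adjusted p = 0.0216).

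BB2-282 and BB2-125 differed in 5 of 8 members, where 36.3% of all genes were called, 17.6% as higher and 18.7% as lower. CCL2 (1.35 ± 0.15, adjusted p = 1.09e-06) and CXCL8 (0.77 ± 0.15, adjusted p = 0.000573) were higher with BB2-282. CXCL2 (-1.37 ± 0.14, adjusted p = 6.11e-07), CXCL5 (-0.67 ± 0.09) and CCL20 (-0.63 ± 0.11) were lower. For CXCL1 the compounds gave nearly the same reading, and the 95% interval of the difference ran from -0.29 to 0.24 (adjusted p = 0.921). CXCL3 (-0.52 to 0.12) and CXCL6 (-0.40 to 0.10) did not pass either.

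**Figure D3:**
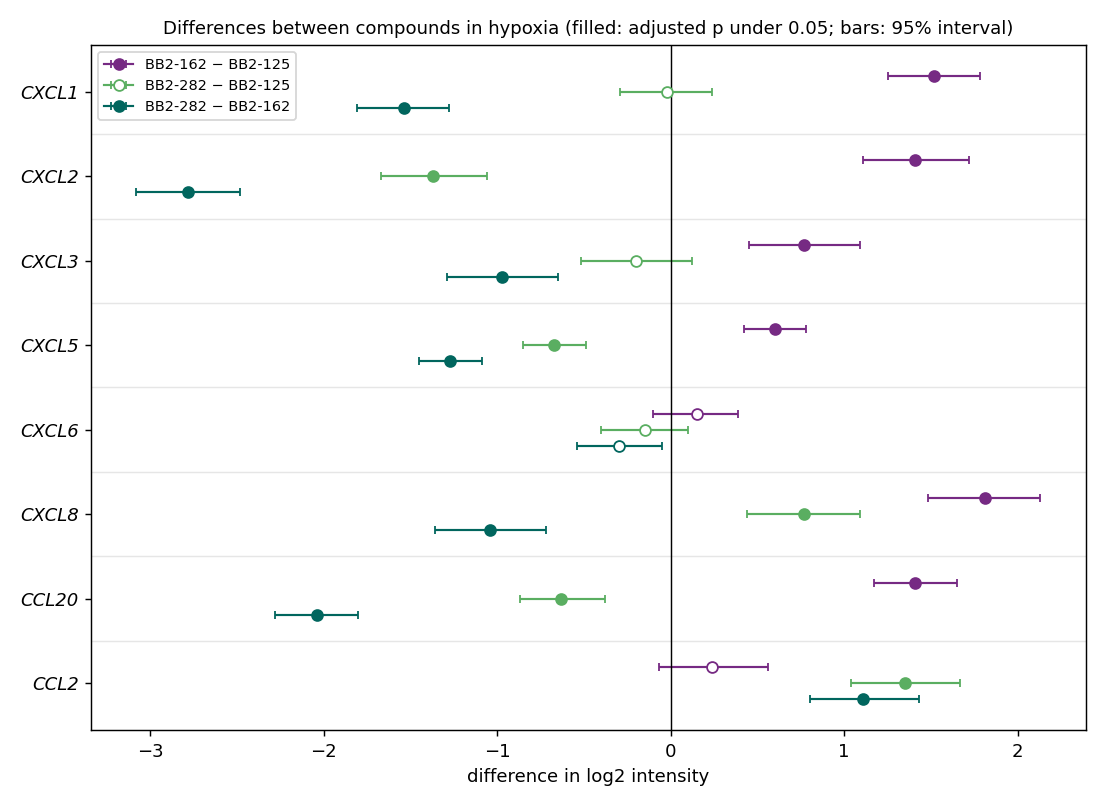
Differences in log2 intensity between the compounds in hypoxia for the 8 chemokines, with 95% intervals; filled points passed an adjusted p under 0.05. BB2-162 lies above BB2-125 in CXCL8 by 1.81 and BB2-282 differs from BB2-162 in CXCL2 by -2.78, while CCL2 is the gene in which BB2-282 exceeds both other compounds, by 1.35 and 1.11.

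The order of the 5 groups therefore differed from gene to gene. CCL20 ran from BB2-162 through hypoxic vehicle, BB2-125 and BB2-282 down to normoxia, and each neighbour in that order passed. CXCL8 ran from BB2-162 through hypoxic vehicle, BB2-282 and BB2-125 to normoxia, and only hypoxic vehicle and BB2-282 did not pass as neighbours. CXCL2 ran from BB2-162 through BB2-125, normoxia and hypoxic vehicle to BB2-282, with no call between the last pair. CXCL1 had BB2-162 on top, then BB2-125 and BB2-282, which did not pass from each other, then normoxia and hypoxic vehicle, which did not either.

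CXCL5 was highest in normoxia and with BB2-162, which did not pass as neighbours, followed by BB2-125, hypoxic vehicle and BB2-282, each passing from the next. Of these calls, that between BB2-125 and hypoxic vehicle ended in 8 of 15 alternatives, as given above. CCL2 ran from BB2-282 to normoxia (0.69 ± 0.15, adjusted p = 0.000657) and on to BB2-162 (0.43 ± 0.15, adjusted p = 0.0164), hypoxic vehicle and BB2-125, with no call among the last 3 neighbours. Without normoxic vehicle replicate 1 the call between normoxia and BB2-162 ended (adjusted p = 0.0732), as it did with quantile-normalized arrays (0.201). In CXCL3 BB2-162 exceeded BB2-125 (0.77 ± 0.15), and no lower neighbours passed. In CXCL6 no neighbours passed, although its ends, BB2-162 and normoxia, differed by 0.36 ± 0.12 (adjusted p = 0.0106), a call that ended without normoxic vehicle replicate 2 (0.24, adjusted p = 0.0825), with median centring (0.0533), with quantile normalization (0.134) and with the replicate block in those groups alone (0.0552).

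Set against normoxia, 7 of 8 members were called with each compound. With BB2-125 these were 5 higher and 2 lower, against 62% of all genes called, 31.5% higher and 30.5% lower. With BB2-162 they were 6 higher and 1 lower, against 76.8% of all genes, 42.4% higher and 34.4% lower. With BB2-282 they were 5 higher and 2 lower, against 64.8% of all genes, 33.4% higher and 31.4% lower. CCL20, CXCL8, CXCL1 and CXCL3 were higher than in normoxia with all 3 compounds. The CXCL1 excess was small with BB2-125 (0.35 ± 0.13, adjusted p = 0.0214) and BB2-282 (0.33 ± 0.13, adjusted p = 0.0288). The first ended without normoxic vehicle replicate 3 (0.0831) or BB2-125 replicate 1 (0.116). The second ended in 5 of 15 alternatives, with adjusted p up to 0.103, among them median centring and leaving out normoxic vehicle replicate 2 or 3 or BB2-282 replicate 1 or 2. CXCL2 was above normoxia with BB2-125 (0.67 ± 0.14) and BB2-162 (2.08 ± 0.14) and below it with BB2-282 (-0.70 ± 0.14, adjusted p = 0.000359).

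The 6 CXC genes lie in 1 cluster on chromosome 4, in the RefSeq order CXCL8, CXCL6, PF4V1, CXCL1, PF4, PPBP, CXCL5, CXCL3 and CXCL2. Neighbours often differed. CXCL8 rose in hypoxia, whereas CXCL6 beside it did not pass in any comparison with the hypoxic vehicle. CXCL5, CXCL3 and CXCL2, which end the row, were all higher with BB2-162 and were lower, not called and lower in hypoxia. PPBP, the platelet chemokine precursor that also yields a CXCR2 ligand, read 6.51, 6.59 and 6.37 in normoxia and 8.12, 8.31 and 7.52 in the hypoxic vehicle, a rise of 1.49 ± 0.17 (adjusted p = 3.27e-07). With BB2-125 it read 6.16, 5.92 and 5.74, with BB2-162 6.65, 6.47 and 6.49, and with BB2-282 6.69, 6.94 and 6.50. All compound arrays lay below all hypoxic vehicle arrays, with falls of -2.04 ± 0.17, -1.44 ± 0.17 and -1.27 ± 0.17 (adjusted p of 4.88e-08, 3.02e-06 and 5.57e-05). PPBP was thus lower with BB2-162 while the 6 called members were higher. PF4 and PF4V1, whose products lack the glutamate-leucine-arginine motif, did not pass with any compound against the hypoxic vehicle, and PF4V1 rose slightly in hypoxia (0.28 ± 0.11, adjusted p = 0.0447).

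**Figure D4:**
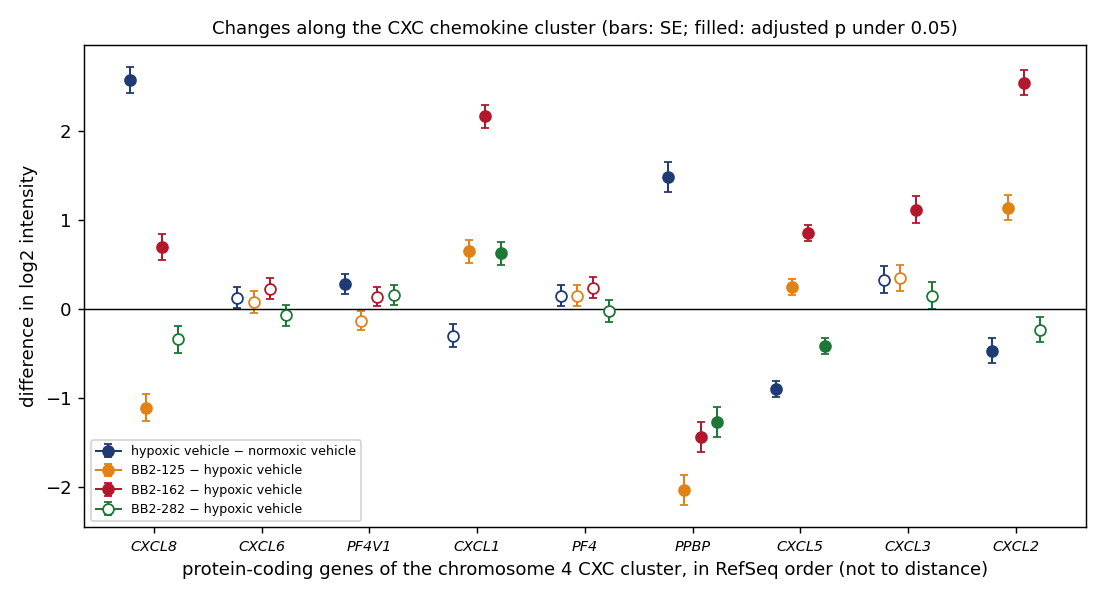
Change in log2 intensity (bars are standard errors) of the 9 protein-coding genes of the chromosome 4 chemokine cluster, in RefSeq order and not to distance, in 4 comparisons; filled points passed an adjusted p under 0.05. CXCL8 and PPBP rise in hypoxia by 2.58 and 1.49, BB2-162 raises CXCL1 by 2.17 and CXCL2 by 2.55 at separate places in the row, and PPBP lies below 0 with all 3 compounds.

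The receptors of these ligands were scarcely seen. CXCR1, CXCR2 and CCR2 exceeded the dim level on 0 of 15 arrays and were not tested. The same held for CCRL2, an atypical receptor of the list that is not counted here as a receptor of the members. CCR6 lay just above the dim level, with group means of 4.92 to 5.31. Neither CCR6 nor ACKR2 passed in the 4 comparisons with the hypoxic vehicle. Of the other tested genes of the list, the scavenging receptor gene ACKR1 rose in hypoxia by 0.32 ± 0.12 (adjusted p = 0.0287), a call lost with quantile-normalized arrays (0.0682) and on leaving out normoxic vehicle replicate 1 (0.0774) or 2 (0.0598) or hypoxic vehicle replicate 3 (0.137). SDC1, a cell-surface proteoglycan that binds chemokines, fell in hypoxia by 0.39 (SE 0.09, adjusted p = 0.00142). With BB2-282 SDC1 rose by 0.38 ± 0.09 (adjusted p = 0.0102), and that call ended without hypoxic vehicle replicate 2 (0.0614) or BB2-282 replicate 1 (0.0568) or 2 (0.0585), and with the replicate block in those groups alone (0.0703).

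Regulators upstream of the chemokines were described by lists from textbook knowledge, chosen with earlier results of these data known. Their counts are therefore a description and no independent support. Of 20 tested NF-kB subunits, kinases and inhibitors, 15 rose in hypoxia and 3 fell, with a median change of 1.1 against 0.09 for all genes. The counts in hypoxia stand against 57.5% of all tested genes called, 28.2% higher and 29.4% lower, and the share of the inducing list given below is near it. NFKB2, an NF-kB subunit, rose by 2.79 ± 0.12 and TNIP1, which restrains the pathway, by 2.76 ± 0.11. Of 15 AP-1 and C/EBP factors 11 rose and 1 fell, among them JUN (3.06 ± 0.14) and CEBPB (1.80 ± 0.09). Of 33 inducing cytokines, receptors and adaptors 13 rose and 8 fell. The interleukin-1 receptor gene IL1R1 fell by 3.76 (SE 0.15) while its partner IL1RAP (2.86 ± 0.13) and the kinase-like adaptor gene IRAK2 (3.13 ± 0.11) rose. Of 17 genes for the decay or stability of AU-rich messages 8 rose and 7 fell, with rises of ZFP36 (1.85 ± 0.14), which speeds that decay, and DUSP1 (1.82 ± 0.10), a phosphatase gene that damps stress kinases.

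With BB2-162, 10 of 20 NF-kB genes rose and 2 fell, with a median of 0.31. Over all tested genes 36.1% were called, 15.7% higher and 20.4% lower, and the share of the inducing list is near that. NFKBIZ, a nuclear cofactor needed for some NF-kB targets, rose by 1.47 ± 0.11 and the inhibitor gene NFKBIA by 1.05 ± 0.09. Of the AP-1 and C/EBP factors 10 of 15 rose and 0 fell, including FOSB (2.10 ± 0.18), JUNB (1.31 ± 0.11) and CEBPB (0.83 ± 0.09). The decay genes ZFP36 (1.79 ± 0.14) and ZC3H12A (1.12 ± 0.10) rose as well, among 5 of 17 that rose and 3 that fell. Of 33 inducing genes 3 rose and 8 fell, with TAB2 at -1.59 ± 0.11 and MYD88 at -0.92 ± 0.14, both adaptors of the interleukin-1 pathway. Among 13 myeloid growth factors and inflammatory genes 8 rose and 1 fell, with LCN2, an antimicrobial iron-binding protein gene, at 1.41 ± 0.14 and IL11 at 1.01 ± 0.11.

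With BB2-125 the NF-kB list was split, with 4 of 20 higher, 5 lower and a median of 0.00. Over all tested genes 28.4% were called, 13.3% higher and 15% lower, and the shares of the inducing, decay and myeloid lists are near that. NFKBIA rose by 0.62 ± 0.09 and RELA, which encodes a main NF-kB subunit, fell by 0.74 (SE 0.11). Of the AP-1 and C/EBP factors 7 of 15 rose and 2 fell, with ATF3 at 1.45 ± 0.18 and falls of FOSL2 (-0.88 ± 0.10) and CEBPD (-0.80 ± 0.09). TAB2 fell by 1.64 (SE 0.11), among 8 of 33 inducing genes that fell and 1 that rose. Of the 17 decay genes 2 rose and 4 fell, with ZFP36L2 at -1.11 ± 0.11. Of the 13 myeloid factors 1 rose and 2 fell, with the complement gene C3 at -0.77 ± 0.15.

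With BB2-282, 5 of 20 NF-kB genes rose and 0 fell, with a median of 0.32, among them NFKBIZ (0.71 ± 0.11) and TNIP2 (0.65 ± 0.10). Over all tested genes 13.6% were called, 5.65% higher and 7.94% lower, and the share of the inducing list is near that. The interleukin-1 genes IL1A (1.19 ± 0.20, adjusted p = 0.000499) and IL1B (0.64 ± 0.10, adjusted p = 0.000384) rose, among 4 of 33 inducing genes that rose and 1 that fell. ICAM1, the endothelial and epithelial adhesion molecule that neutrophils and monocytes grip, rose by 1.79 ± 0.10 (adjusted p = 5.2e-09), and C3 rose by 0.84 ± 0.15. Of the 15 AP-1 and C/EBP factors 3 rose, with JUNB at 0.44 to 0.58 when 1 array was left out. The 2 that fell were FOS (-1.23 ± 0.16) and CEBPB (-0.43 ± 0.09). Of the 17 decay genes 1 rose and 3 fell, and of the 13 myeloid factors 4 rose and 0 fell. Among 17 other tested chemokines, 4 rose and 2 fell in hypoxia, 1 rose and 2 fell with BB2-125, 6 rose and 2 fell with BB2-162, and 1 rose and 2 fell with BB2-282. Of all tested genes 57.5%, 28.4%, 36.1% and 13.6% were called in these comparisons, so the share of these chemokines called was below the background in hypoxia and with BB2-125.

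**Figure D5:**
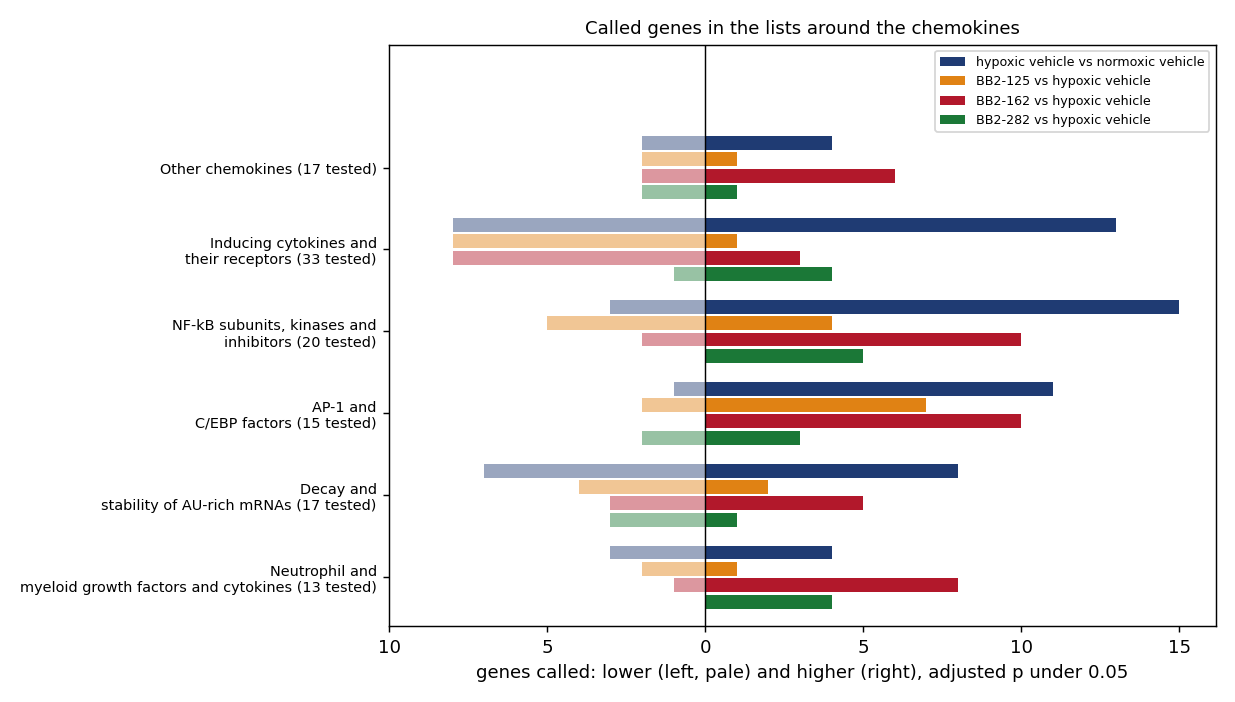
Number of genes called higher (right, solid) and lower (left, pale) in 6 lists around the chemokines, in 4 comparisons, with the number tested beside each list name. Hypoxia has the longest bars to the right in 4 of the 6 lists, with 15 of 20 NF-kB genes and 11 of 15 AP-1 and C/EBP factors higher, and BB2-162 has 10 higher in each of those lists.

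The genes whose profile over the 15 arrays was most like a member's were ranked by Pearson's r, a description in which the 5 groups carry most of the variation. For CXCL2 they were NR4A1 (0.962), C19orf73 (0.956) and NR4A2 (0.942), where NR4A1 and NR4A2 are immediate-early nuclear receptor genes. For CXCL1 they were PTGER4 (0.946), a prostaglandin E2 receptor gene, MIR7-3 (0.935) and MOAP1 (0.932), and for CXCL3 PRR7 (0.959), BORCS6 (0.944) and RASD1 (0.943). CXCL8 was most like TCIM (0.978), CSRNP1 (0.976) and GTPBP1 (0.965), and CCL20 like UIMC1 (0.983), DUSP1 (0.981) and PDK1 (0.98), a kinase gene that hypoxia induces. CXCL5 was most like the splicing factor gene SRSF7 (0.959), FST (0.951) and SNAP25 (0.948). CCL2 had E2F3 (0.90), NBEAL2 (0.879) and TMEM132A (0.875), and CXCL6 had OR56B1 (0.912), LAMA2 (0.906) and ZNF473CR (0.90). No non-member stood in the top 3 of more than 1 member. Among the members themselves r over the 15 arrays was highest for CXCL8 and CCL20 (0.93) and for CXCL1 and CXCL2 (0.89), and lowest for CXCL2 and CCL2 (-0.46).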

How the data were processed

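Each of 15 A549 cultures was hybridised to 1 Affymetrix whole-transcript array, and groups were taken from the sample titles. The deposited values are linear-scale intensities, 1 for each probe set on each array, made by RMA (background correction, normalisation between arrays, summary per probe set), per the submitters' processing notes; software, version and genome build are not given in the sources used here. Array medians of intensity lay between 74.91 and 84.6; precision is limited by the number of arrays. The log2 was taken here. Of 28869 probe sets, 19310 had 1 symbol, 1752 several and 7807 none; symbols were updated through the Entrez ID, and the brightest probe set stood for a gene. Genes had to exceed an array's 25th percentile on at least 3 arrays. Changes came from limma 3.58.1 (R 4.3.3), 1 group-means fit with 10 residual and 7.96 prior degrees of freedom, Benjamini-Hochberg within each of 10 comparisons; the script was tested on simulated data. The members, gene lists and tests were chosen with earlier results of these data known. The rule for named genes took all members, the 3 most correlated genes of each, all receptors and up to 3 genes of lowest p per list and comparison; PF4 and PF4V1 were added by position. Same-number arrays of hypoxic vehicle and BB2-125 deviated together (r of 0.33, 0.29 and 0.19), all over the 0.1 taken as pairing, from the data alone; in each of the other 9 pairs of groups at least 1 of the 3 correlations was 0.1 or lower. No 2 arrays were identical. Motifs were searched with Python 3.11.15. Alternatives covered normalisation, filter, moderation, probe sets, samples fitted, the replicate block and leaving out each array.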

Additional observations from a re-analysis of the deposited data

How the results depend on the processing

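Of 80 member changes (8 genes in 10 comparisons), 68 kept their call in each alternative run and 12 gained or lost a call somewhere. Of the changes called with all arrays 0 turned direction; some that did not pass crossed 0, such as CCL2 with BB2-162 against the hypoxic vehicle (-0.12 to 0.24) and CXCL1 with BB2-282 against BB2-125 (-0.11 to 0.08). The counts of members called stayed within 1.5 times the main count in every alternative. The replicate block in the fit of all arrays changed no member's call, with 9078 genes called in hypoxia (9207 without it), 4444 for BB2-125 (4539), 5625 for BB2-162 (5780) and 2112 for BB2-282 (2176) against the hypoxic vehicle. With the replicate block in fits of 2 groups alone, CXCL3 (0.33, adjusted p = 0.0323) and CXCL1 (-0.30, adjusted p = 0.041) passed in hypoxia, and CXCL6 with BB2-162 no longer passed against normoxia (0.36, adjusted p = 0.0552). CXCL6 with BB2-125 passed against normoxia without normoxic vehicle replicate 3 (0.32, adjusted p = 0.0331). Counts over all genes moved more: for BB2-162 against the hypoxic vehicle 3494 genes passed in a fit of 2 groups alone and 3672 with the replicate block there. For BB2-162 against BB2-125 these were 2582 and 1849, against 4182 in the fit of all arrays. Leaving out 1 array gave 2645 (without BB2-162 replicate 3) to 6208 (without BB2-162 replicate 1) for that pair, and 1222 (without hypoxic vehicle replicate 1) to 2393 for BB2-282 against the hypoxic vehicle, with 1352 without hypoxic vehicle replicate 2 and 1258 without BB2-282 replicate 2. With median centring the higher calls went, as a share of all calls, from 43.4% to 28.2% for BB2-162 against the hypoxic vehicle, from 36.1% to 25.6% for BB2-162 against BB2-125 and from 56.6% to 67.1% for BB2-282 against BB2-162. That centring moved the median change of all genes for BB2-162 against normoxia from 0.14 to 0.03. The causes of these shifts were not tested. CCL20 changes from normoxia are bounds (4.69 in hypoxia, 4.15 with BB2-125, 5.56 with BB2-162 and 3.53 with BB2-282), counted from the dim level of the normoxic arrays, an alternative chosen after seeing the data.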

Other observations

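Within groups, arrays that were high for one chemokine tended to be high for some others. After removing group means, r over the 15 arrays was 0.92 for CXCL1 and CXCL2, 0.68 for CXCL3 and CCL2, 0.62 for CXCL5 and CXCL8 and 0.60 for CXCL2 and CXCL8. It was -0.32 for CXCL6 and CCL20. These are the highest pairs and the lowest. Hypoxic vehicle replicate 2 was the lowest of its group in all 8 members and BB2-162 replicate 1 in 6. Values of r without these arrays were not computed. Arrays share their processing, and these values are a description. CXCL8 and CCL20, at 0.93 over the 15 arrays, had 0.42 within groups.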
